A study of Mus musculus with 81 samples.

Results

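Rab GTPases are small membrane-bound switches that mark the compartments of vesicle traffic. A Rab in its GTP form recruits effectors that move, tether or fuse a vesicle, guanine nucleotide exchange factors load the GTP, and GTPase-activating proteins end the signal. In neutrophils this system carries granules to the phagosome and the cell surface, with Rab27a and its effectors best known for granule docking, and Rab5, Rab7 and Rab11 proteins known for the maturation and recycling of endosomes and phagosomes. The genes described here are those whose platform symbol is Rab followed by a number and an optional letter, taken from probe sets that carry a single symbol. This rule found 62 of the 24922 probe sets of the array, belonging to 59 genes of the 19752 with a single symbol, and the brightest probe set stood for Rab2a, Rab5b and Rab11b, the 3 genes with several.

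The samples were neutrophils of inbred mice, sorted from bone marrow as cells carrying CD11b and Ly6G, all from males aged 6 weeks per the labels, and each of the 81 arrays held RNA pooled from several mice. The 5 wild-derived strains, so classed by common knowledge of their names, were WSB/EiJ, PWD/PHJ, MSM/Ms, JF1/Ms and CAST/EiJ. The 35 classical strains were 129S1/SvImJ, A/J, AKR/J, C3H/HeJ, C57BL/10J, C57BL/6J, C57BLKS/J(662), C57L/J (668), CBA/CaJ, CBA/J, CE/J, DDY/JclSidSeyFrkJ, FVB/NJ, KK.Cg-Ay/J, LGJ, LP/J(676), MA/MyJ, MRL/MpJ, NOD/ShiLtJ, NON/ShiLtJ, NOR/LtJ, NZB/BINJ, NZW/LacJ, P/J, PL/J, RIIIS/J, SEA/GnJ, SJL/J, SM/J and SWR/J, and 5 groups named here by title (titled DBA2, titled C57BR, titled Balb, titled BTBR and titled BPL) because title and background label name different strains. There were 5 arrays of C57BL/6J, a single array each of FVB/NJ and SWR/J, and 2 arrays in each of the other 37 groups, so the number of arrays limits the precision and p-values measure the spread between pools. No strain served as a control, and all comparisons were between strains. For the 5 groups named by title, the background label was BALB/cByJ for titled BPL, BTBR T+ tf/J for titled Balb and CBA/CaJ for titled C57BR. It named a BPL strain for titled BTBR, and for titled DBA2 a LacJ strain of DBA other than DBA2. Whether the title or the label names the strain correctly was not tested.

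All values are log2 intensities of the deposited table, whose array medians lay between 97.2 and 114.8 intensity units, and each difference is that of the strain or origin named first minus the one named after it. The mean of 12 neutrophil markers lay between 13.27 in titled BTBR and 13.41 in SEA/GnJ. These markers are bright, and whether the purity of the samples was even was not tested. Means of 10 marker lists were set beside the Rab genes. The cell cycle list, with 17 genes, varied most among them, between 6.86 in NOR/LtJ and 9.50 in NON/ShiLtJ. Among lists of other cells, the megakaryocyte and platelet list spanned most, between 6.55 in SEA/GnJ and 7.63 in NOD/ShiLtJ. The monocyte and macrophage list came next, between 6.58 in SJL/J and 7.42 in titled BTBR. In sorted pools, fewer cells of a type and less RNA per cell cannot be told apart. The probes follow the C57BL/6J sequence, and a variant under a probe can lower the intensity in another strain, which these values do not separate from a lower transcript level. Cross-hybridisation between related Rab transcripts was not tested.

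Some arrays stood apart. The slope of an array against the median profile of all arrays was 0.880 in array 1 of NZB/BINJ and 0.937 in array 2 of C57L/J (668), against 0.945 to 1.03 in the other 79 arrays. The brightest probe sets were shifted by -0.31 and -0.21 on these 2 arrays, against -0.14 to 0.11 on the others, so bright genes read low there. Array 2 of NZB/BINJ, at 0.952 and -0.10, lay within the span of the others. The ranges over strains that take their low end from either strain, and the pairs that hold either strain, are given with and without the array that stands apart.

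Promoters are shown for Rab23, which differed most among strains, and for Rab5a, Rab22a and Rab27a, which varied together. Each sequence is the 250 bases before a RefSeq transcription start of assembly GRCm38.p6 on the plus strand, and capitals mark motif matches on either strand. Rab23 has a start at chr1:33719646-33719895 and another at chr1:33720169-33720418. Rab5a is at chr17:53478984-53479233 and Rab22a at chr2:173659595-173659844. Rab27a has a start at chr9:73044560-73044809 and another at chr9:73063898-73064147.
Rab23 start 1: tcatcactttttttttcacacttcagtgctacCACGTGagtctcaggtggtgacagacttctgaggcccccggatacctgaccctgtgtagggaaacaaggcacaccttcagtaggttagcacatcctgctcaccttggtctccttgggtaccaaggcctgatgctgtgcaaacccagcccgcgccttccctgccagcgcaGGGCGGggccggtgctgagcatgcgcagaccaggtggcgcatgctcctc
Rab23 start 2: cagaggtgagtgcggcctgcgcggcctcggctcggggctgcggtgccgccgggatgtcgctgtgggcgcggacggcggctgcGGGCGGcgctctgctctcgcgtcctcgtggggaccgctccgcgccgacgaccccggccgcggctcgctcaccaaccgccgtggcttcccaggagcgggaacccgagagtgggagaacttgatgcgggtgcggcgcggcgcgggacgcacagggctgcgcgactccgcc
Rab5a: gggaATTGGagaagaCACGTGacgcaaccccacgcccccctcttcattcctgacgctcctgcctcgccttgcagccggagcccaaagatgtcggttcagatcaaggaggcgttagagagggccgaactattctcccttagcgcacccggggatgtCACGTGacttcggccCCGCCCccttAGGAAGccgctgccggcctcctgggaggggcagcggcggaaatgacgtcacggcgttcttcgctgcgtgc
Rab22a: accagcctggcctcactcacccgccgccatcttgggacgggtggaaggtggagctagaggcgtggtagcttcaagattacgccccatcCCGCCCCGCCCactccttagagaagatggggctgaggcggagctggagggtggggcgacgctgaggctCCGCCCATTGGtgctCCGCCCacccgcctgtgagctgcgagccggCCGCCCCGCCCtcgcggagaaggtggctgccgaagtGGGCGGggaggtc
Rab27a start 1: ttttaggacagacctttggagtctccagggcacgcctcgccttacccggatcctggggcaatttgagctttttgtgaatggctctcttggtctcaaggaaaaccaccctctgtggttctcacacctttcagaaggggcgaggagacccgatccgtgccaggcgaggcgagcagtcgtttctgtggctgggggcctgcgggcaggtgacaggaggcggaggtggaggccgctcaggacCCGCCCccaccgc
Rab27a start 2: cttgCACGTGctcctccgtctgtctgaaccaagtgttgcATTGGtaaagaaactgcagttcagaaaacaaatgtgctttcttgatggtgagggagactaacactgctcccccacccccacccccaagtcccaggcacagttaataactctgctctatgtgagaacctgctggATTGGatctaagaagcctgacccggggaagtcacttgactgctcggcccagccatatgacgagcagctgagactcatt

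The motifs searched were the GC box (letters GGGCGG), the CCAAT box, the E-box (letters CACGTG), the TATA box (letters TATAAA), a C/EBP motif (letters TTGCNNAA) and a PU.1-type ETS motif (letters AGGAAG), each on both strands and with overlapping matches allowed. The Rab22a promoter held 7 GC boxes and 1 CCAAT box. The Rab5a promoter held 2 E-boxes and a single match each to the GC box, the CCAAT box and the PU.1-type motif. The upstream Rab23 start had an E-box and a GC box, with 9 CpG dinucleotides, while the downstream start had 42 CpG dinucleotides and a GC content of 77.2%. Rab27a start 1 had 1 GC box, and its start 2 had 2 CCAAT boxes and 1 E-box. No motif among the 6 was shared by all 4 genes at every start, but Rab27a start 2 alone lacked a GC box. RefSeq held 60 promoters for 48 of the 59 genes, and 66.7% of these 60 had a GC box against 32.7% of all 32851 promoters of the same length. Their median GC content was 60.2%, against 52.4% for all promoters, and the median number of CpG dinucleotides was 15.0 against 6.0. The CCAAT box was in 24 of the 60 and in 33.8% of all promoters. The other motifs stood at 8.3% against 6.0% (E-box), 6.7% against 12.4% (TATA box), 6.7% against 9.6% (C/EBP) and 26.7% against 29.5% (PU.1-type). These are descriptions of sequence, and a match is not a binding site.

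The first comparison asked how far Rab transcripts differ among strains. Of the 59 genes, 41 differed in limma's moderated F test at an adjusted p under 0.05, where 56.0% of all probe sets did so, and 13 also spanned 2-fold or more from the lowest to the highest strain mean, where 24.5% of all did. Brightness moved with this count: of the 36 Rab genes averaging 7 or more, 32 were called and 10 had the 2-fold range, beside 84.9% and 42.5% of the 10816 probe sets that bright. Of the 23 dimmer Rab genes, 9 were called and 3 had the 2-fold range, beside 33.9% and 10.7% of the 14106 probe sets that dim. The median SD of strain means was 0.14 for the Rab genes and 0.14 for all probe sets, and among the brighter ones it was 0.18 against 0.20. The share of Rab genes called was therefore near that of other transcripts of like brightness. Without both NZB/BINJ arrays, 37 were called and 11 had the 2-fold range, but the shares of all probe sets were not counted there.

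Leaving out the 2 arrays that stand apart changed no F-test call of a Rab gene: 41 were called, where 54.0% of all probe sets were, and 12 had the 2-fold range, where 23.8% of all did. Rab12 and Rab22a left the 2-fold set and Rab1b, at 1.06, joined it. NZB/BINJ had the lowest mean for 14 Rab genes and C57L/J (668) for 2. Of the 59 ranges, 54 moved by at most 0.1, and that of Rab25, a gene not called, moved by over 1.5 times (0.35 without both arrays, against 0.56). The ranges given below as without an array come from this comparison.

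**Figure D1:**
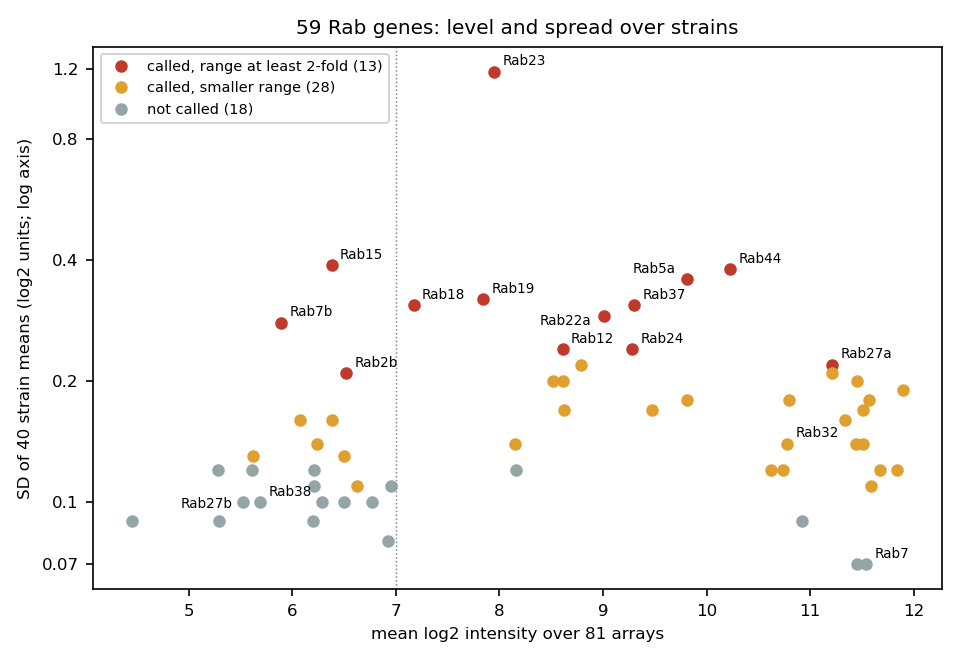
SD of 40 strain means (vertical, log axis) against the mean log2 intensity over 81 arrays (horizontal) for 59 Rab genes, coloured by whether the gene was called in limma's F test and spanned 2-fold or more. Rab23 stands alone at an SD of 1.18, and Rab7 lies at 0.07 with a mean of 11.54. The dotted line marks a mean of 7.

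Rab23, a regulator of Hedgehog signalling and ciliary traffic in the mouse embryo, had by far the largest spread. Its 2 arrays stood at 5.13 and 5.19 in CAST/EiJ, 4.95 and 4.93 in JF1/Ms, 5.20 and 4.96 in MSM/Ms, and 5.23 and 4.80 in PWD/PHJ. CE/J, a classical strain, lay with them at 5.15 and 5.00. WSB/EiJ, the remaining wild-derived strain, is of Mus musculus domesticus origin, like most of the classical genomes, and stood at 8.75 and 8.71. The 5 C57BL/6J arrays were at 8.20, 8.27, 8.36, 8.39 and 8.40. No array of the 5 low strains overlapped any other array: the highest of them was 5.23, and the lowest elsewhere was 7.07 in C57L/J (668). The range between strain means was 3.97 (15.7-fold), between 4.94 in JF1/Ms and 8.91 in SJL/J (adjusted p = 3.7e-28).

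Above this gap Rab23 still varied, with strain means between 7.30 in titled BTBR and 8.91 in SJL/J. Wild-derived strains averaged 5.79 ± 1.65 (SD, n = 5 strains) and classical strains 8.26 ± 0.70 (SD, n = 35 strains), a difference of -2.47 ± 0.39 (SE, adjusted p = 2.3e-05). The difference was -3.21 without WSB/EiJ and between -2.32 and -2.26 without any other wild-derived strain. The wild-derived mean falls in the gap, where no strain lies: 4 wild-derived strains and CE/J formed the low cluster, and WSB/EiJ lay among the other classical strains.

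**Figure D2:**
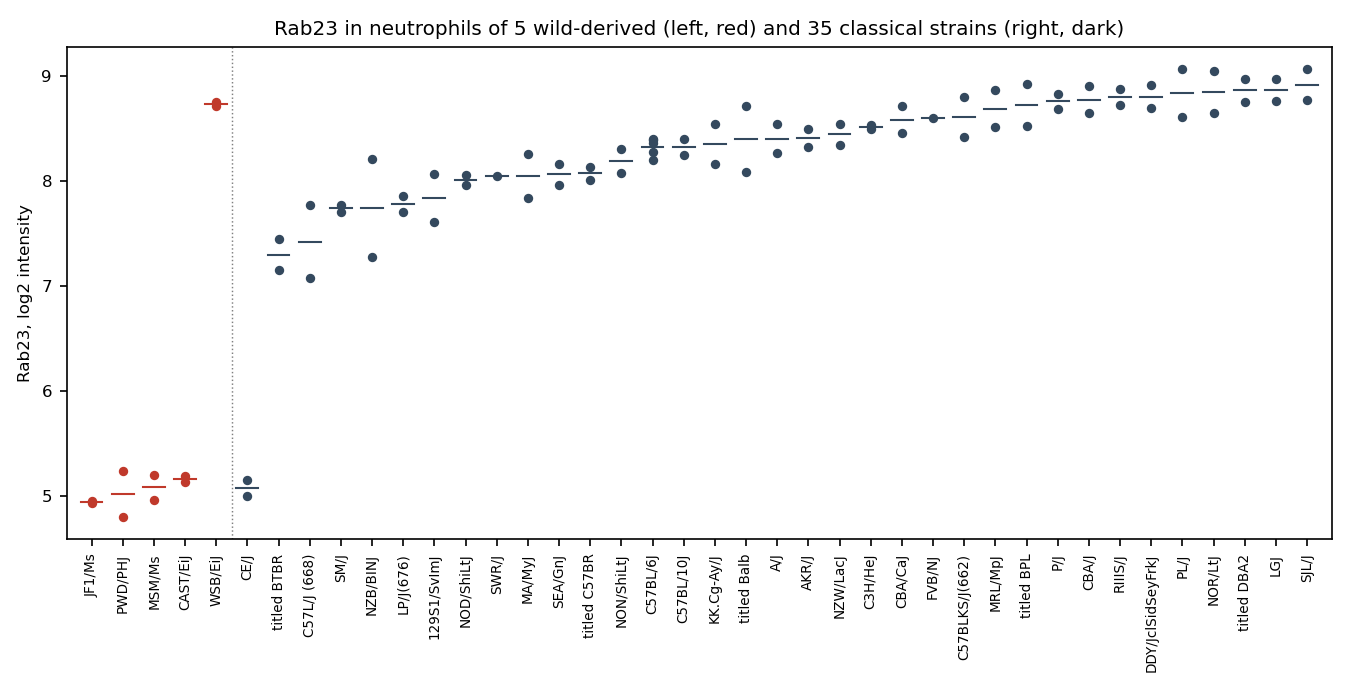
Rab23 log2 intensity on each array (points) with the strain mean (bars) for 5 wild-derived strains, left and red, and 35 classical strains, right and dark, each block ordered by its mean. JF1/Ms, PWD/PHJ, MSM/Ms, CAST/EiJ and CE/J lie at or under 5.23, and every other array is at 7.07 or above.

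The genes next to Rab23 on chromosome 1 were looked at after this layout was seen, with neighbour order taken from the GRCm38.p6 gene table. Prim2, a DNA primase subunit and the nearest gene on one side, had the same 5 strains at the bottom: 6.23 in PWD/PHJ, 6.32 in JF1/Ms, 6.62 in CAST/EiJ, 6.66 in CE/J and 6.70 in MSM/Ms, with 7.52 in WSB/EiJ and 7.26 in C57BL/6J. Zfp451, the next but one on the other side and a SUMO ligase, did too: 7.03 in CAST/EiJ, 7.21 in MSM/Ms, 7.23 in JF1/Ms, 7.26 in PWD/PHJ and 7.30 in CE/J, with 8.22 in WSB/EiJ and 7.97 in C57BL/6J. A gene on each side thus had the same 5 strains lowest, but without the wide gap of Rab23. The next strain mean was 7.10 in NZB/BINJ for Prim2, and 7.54 on the single SWR/J array for Zfp451. The wild-derived minus classical difference was -0.95 ± 0.17 (SE, adjusted p = 0.00012) for Prim2 and -0.55 ± 0.13 (SE, adjusted p = 0.0028) for Zfp451. Bag2, which lies between Rab23 and Zfp451, had strain means between 5.51 and 6.07 and was not called (adjusted p = 0.15). Khdrbs2, Gm15455 and Bend6, the other measured neighbours within 4 genes, did not have these 5 strains at the bottom. Gm15455, for example, lay between 8.80 and 9.02 in them, beside 8.85 in C57BL/6J. Sequence variants under the probes of these genes were not tested. In the 5 low strains the cell cycle list lay between 7.10 in CAST/EiJ and 7.80 in MSM/Ms, under its median of 8.14. It was also low in other strains, at 7.22 in C57BL/6J and 6.86 in NOR/LtJ. What part it has in the Prim2 levels was not tested.

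Among the 9 genes of secretory granules and exocytosis, 5 were called and 3 had a 2-fold range, beside 56.0% and 24.5% of all probe sets. All 4 of them that averaged 7 or more were called, 3 with the 2-fold range, beside 84.9% and 42.5% of probe sets that bright. Rab44, an unusually large Rab with calcium-binding EF hands that is known from mast cell granules, differed most. It read 11.02 and 10.97 in MA/MyJ and 11.00 and 10.70 in SM/J, against 9.53 and 9.43 in A/J and 9.54 and 9.47 in CAST/EiJ. The range between MA/MyJ (11.00) and A/J (9.48) was 1.51 (adjusted p = 1.2e-14). Rab37, known from mast cell and exocytic vesicles, was highest in A/J, the strain lowest for Rab44: it read 9.96 and 9.85 in A/J and 9.83 and 9.87 in CE/J, against 8.50 and 8.45 in CAST/EiJ and 8.94 and 8.55 in JF1/Ms. Its range was 1.43 (adjusted p = 2.2e-11). CAST/EiJ was thus among the lowest strains for both granule-associated genes.

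Rab27a, the docking Rab of azurophil granules and the gene of the ashen mutation, ran the other way in CAST/EiJ. It read 12.09 and 11.91 there, 11.65 on the single FVB/NJ array and 11.47 and 11.50 in NZW/LacJ, against 11.04 and 10.90 in titled BTBR and 10.88 on the single SWR/J array. The 5 C57BL/6J arrays lay between 10.97 and 11.22. The range was 1.13 (adjusted p = 6.8e-07), and no array of another strain exceeded 11.69, below both CAST/EiJ arrays. Rab27b, the close relative of Rab27a that is best known from platelets, lay between 5.25 in FVB/NJ and 5.73 in NZB/BINJ and was not called (adjusted p = 0.47). Rab3d, known from secretory granules of exocrine cells, was called with a range of 0.75 between 11.11 in NZB/BINJ and 11.86 in JF1/Ms (adjusted p = 0.00019), and 0.76 without array 1 of NZB/BINJ. Rab3a, the synaptic vesicle Rab, was called at a range of 0.82, while Rab3b, Rab3c and Rab26 were not, with ranges of 0.40, 0.61 and 0.38.

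Of the 8 genes of early endosomes and phagosomes, 7 were called, beside 56.0% of all probe sets. Among the 7 averaging 7 or more, 6 were called, beside 84.9% of probe sets that bright. Rab5a, which drives fusion of early endosomes, varied most. It read 10.73 and 10.62 in CAST/EiJ and 10.74 and 10.59 in titled C57BR, against 9.27 and 9.32 in titled BTBR. The 5 C57BL/6J arrays read 10.67, 9.72, 9.80, 9.95 and 9.66, so array 1 of that strain reached the level of the highest strains. The range was 1.38 (adjusted p = 0.00054), and the SD within strains was 0.31 beside 0.36 between strain means. Its paralogs Rab5b and Rab5c were steadier, with ranges of 0.71 (called) and 0.35 (adjusted p = 0.28), or 0.64 and 0.31 without array 1 of NZB/BINJ, the lowest strain for both.

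Rab22a, a regulator of endosomal sorting, stood at 9.61 and 9.46 in NZW/LacJ, against 7.91 and 9.04 in NZB/BINJ, the strain of lowest mean. The range was 1.06, or 0.97 without array 1 of NZB/BINJ. Rab21, known for integrin traffic, ranged over 0.99 between 10.64 in PWD/PHJ and 11.62 in NZW/LacJ. Rab31, which acts between the Golgi and endosomes, ranged over 0.83, Rab20, a Rab of maturing phagosomes, over 0.55 and Rab17, an epithelial Rab, over 0.53. All 3 were called in the F test with differences under 2-fold.

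**Figure D3:**
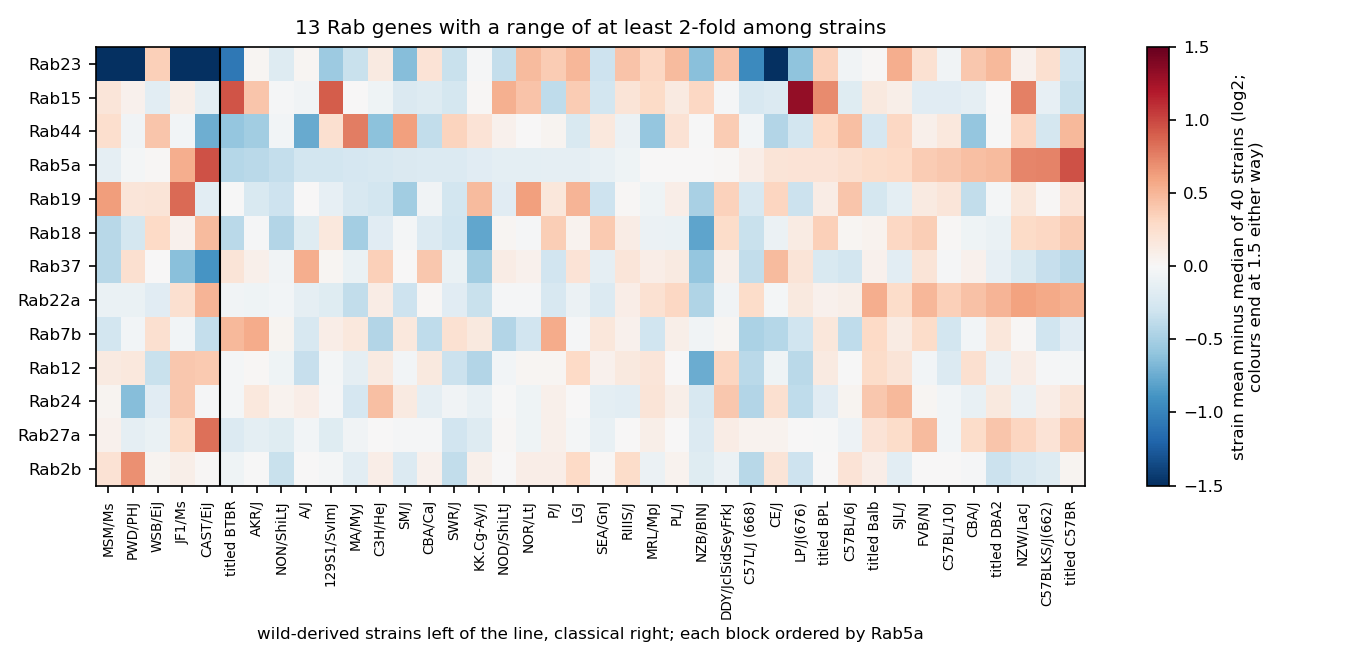
Strain mean minus the median of 40 strains (log2, colours end at 1.5 either way) for the 13 Rab genes called with a span of 2-fold or more, wild-derived strains left of the line and classical strains right of it, each block ordered by Rab5a. The dark blue cells of Rab23 are in JF1/Ms, PWD/PHJ, MSM/Ms, CAST/EiJ and CE/J, and Rab22a and Rab27a grow redder toward the right with Rab5a.

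In the recycling group 5 of 8 genes were called, beside 56.0% of all probe sets, and Rab15 alone of them had a 2-fold range. Among the 5 averaging 7 or more, 4 were called, beside 84.9% of probe sets that bright. Rab15, a brake on early endosomal recycling, read 7.40 and 7.78 in LP/J(676), 7.15 and 7.26 in titled BTBR and 7.08 and 7.27 in 129S1/SvImJ, against 5.92 and 5.87 in P/J. The 5 C57BL/6J arrays lay between 5.90 and 6.25, below all arrays of the 3 high strains. Its range was 1.70 (adjusted p = 9.7e-16) around a median of 6.27, so most strains lay low and a few lay high. Rab11a, the Rab of slow recycling, was called with a range of 0.79, between 9.35 in NON/ShiLtJ and 10.14 in NZW/LacJ. Rab11b had a range of 0.49 (adjusted p = 0.00046), but its dimmer probe set was not called (adjusted p = 0.40). Rab4b and Rab35 were called at ranges of 0.80 and 0.50. NZB/BINJ was lowest for Rab4b, whose range was 0.96 without array 1 of that strain. Rab14, Rab4a and Rab25, with ranges of 0.36, 0.44 and 0.56, were not called.

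The late endosomal and lysosomal group had 6 of 12 genes called, beside 56.0% of all probe sets. Among the 4 averaging 7 or more, 3 were called, beside 84.9% of probe sets that bright. Rab7, the main Rab of late endosomes, was one of the steadiest: its strain means lay between 11.30 in NZB/BINJ and 11.64 in 129S1/SvImJ, with an SD of 0.07 (adjusted p = 0.25). Without array 1 of NZB/BINJ its range was 0.29. It was called when arrays were set to a common median (adjusted p = 0.019). Rab7b, which acts in transport from endosomes to the Golgi, had the 2-fold range of this group, with 6.56 and 6.42 in P/J and 6.47 and 6.51 in AKR/J, against 5.62 and 5.30 in C57L/J (668). The range was 1.03 (adjusted p = 6.5e-07), or 1.00 without array 2 of C57L/J (668), when C3H/HeJ was lowest. Rab32, a Rab of lysosome-related organelles, lay between 10.47 in NON/ShiLtJ and 11.08 in SJL/J (adjusted p = 8.8e-06). Rab38, its relative and the gene of the chocolate coat colour mutation, lay between 5.46 and 5.88 and was not called (adjusted p = 0.53). Rab9, of transport from endosomes to the Golgi, was called at a range of 0.85, and Rab29, Rab39 and Rab39b were called at 0.88, 0.79 and 0.51. Rab9b, Rab34, Rab36 and Rab42 were not called, with ranges between 0.47 and 0.52.

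Genes of the endoplasmic reticulum and Golgi were called in 10 of 12 cases, 3 with a 2-fold range, beside 56.0% and 24.5% of all probe sets. All 8 of them that averaged 7 or more were called, beside 84.9% of probe sets that bright. Rab19, a Golgi-associated Rab, read 8.76 and 8.53 in JF1/Ms and 8.37 and 8.46 in MSM/Ms, against 7.46 and 7.07 in SM/J. Its range was 1.38 (adjusted p = 5.3e-11). Rab18, known from lipid droplets and the endoplasmic reticulum, read 7.57 and 7.75 in CAST/EiJ, against 5.68 and 7.11 in NZB/BINJ. Array 1 of NZB/BINJ gave that low end, yet the range was 1.26 with it and 1.25 without it, since KK.Cg-Ay/J had a mean of 6.41. Rab2b read 7.20 and 7.20 in PWD/PHJ, against 6.18 and 6.02 in C57L/J (668), with a range of 1.10, or 1.05 without array 2 of C57L/J (668). Rab1a, Rab1b, Rab2a and Rab6a, which serve the route between endoplasmic reticulum and Golgi or within the Golgi, were all called, with ranges of 0.69, 0.99, 0.81 and 0.86. NZB/BINJ was lowest for Rab1a, Rab1b and Rab6a, and without its array 1 their ranges were 0.60, 1.06 and 0.78. Rab6b, Rab33b and Rab43 were called too, at 0.50, 0.89 and 0.79, the last of them 0.75 without array 1 of NZB/BINJ. Rab30 and Rab33a were not called, at 0.45 and 0.48.

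In the group of plasma membrane delivery, cilia and other sites 8 of 10 genes were called, beside 56.0% of all probe sets. Among the 8 averaging 7 or more, 7 were called, beside 84.9% of probe sets that bright. Rab12 and Rab24 joined Rab23 in the 2-fold range, which 24.5% of all probe sets had. Rab24, known from autophagy, read 9.48 and 10.03 in SJL/J, against 8.69 and 8.58 in PWD/PHJ, with a range of 1.12 (adjusted p = 7.5e-06). Rab12 read 8.92 and 9.11 in JF1/Ms, against 7.40 and 8.35 in NZB/BINJ. Its range was 1.14, or 0.84 without array 1 of NZB/BINJ. Rab8a, Rab8b and Rab10, of exocytic delivery to the plasma membrane, were called at ranges of 0.62, 0.50 and 0.60, and Rab13 and Rab28 at 0.59 and 0.84. NZB/BINJ was lowest for Rab8a and Rab10, and without its array 1 both ranges were 0.51. Rab40b and Rab40c were not called, at 0.60 and 0.49.

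The second comparison set wild-derived against classical strains, with the strain as the replicate. Of the 59 Rab genes 3 were higher, where 6.64% of all probe sets were, and 2 were lower, where 5.55% were. An unadjusted p of 0.05 was passed by 14 of the 59, and by 6637 of all 24922 probe sets. The lower genes were Rab23 and Rab21. Rab21 averaged 10.95 ± 0.24 in wild-derived and 11.25 ± 0.18 in classical strains (SD, n = 5 and 35 strains), a difference of -0.29 ± 0.09 (SE, adjusted p = 0.024). CAST/EiJ, at 11.27, lay above the classical median of 11.19. The call was lost without MSM/Ms (adjusted p = 0.10) or PWD/PHJ (adjusted p = 0.17).

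The higher genes were Rab29, Rab39 and Rab5b. Rab29, a partner of the kinase LRRK2 at lysosomes and the Golgi, read 8.99 in WSB/EiJ, 8.97 in PWD/PHJ, 8.94 in JF1/Ms, 8.90 in CAST/EiJ and 8.73 in MSM/Ms, against 8.11 to 8.86 in classical strains. The 4 highest of the 40 strain means were therefore wild-derived, and the difference was 0.34 ± 0.08 (SE, adjusted p = 0.0029). Rab39 read 6.60 in PWD/PHJ, 6.37 in JF1/Ms, 6.33 in WSB/EiJ, 6.25 in MSM/Ms and 6.22 in CAST/EiJ, against 5.81 to 6.28 in classical strains, a difference of 0.32 ± 0.06 (SE, adjusted p = 0.00015). Rab5b averaged 11.69 ± 0.18 in wild-derived and 11.48 ± 0.11 in classical strains (SD, n = 5 and 35 strains), a difference of 0.21 ± 0.06 (SE, adjusted p = 0.012), and its other probe set gave 0.20 (adjusted p = 0.019). WSB/EiJ, at 11.43, was below the classical median of 11.49. The Rab5b call was lost without JF1/Ms (adjusted p = 0.11) or PWD/PHJ (adjusted p = 0.062). Without CAST/EiJ there were 5 higher genes, without WSB/EiJ 6 and without JF1/Ms 2.

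Pairs of strains that share ancestry or a reference were compared next. C57BL/10J and C57BL/6J, sublines of a common C57BL stock, differed in 0 of 59 Rab genes by limma, where 2.65% of all probe sets did. An unadjusted p of 0.05 was passed by 4 of the 59, and by 3661 of all 24922 probe sets. C57BLKS/J(662) differed from C57BL/6J in 1, Rab44, where 3.66% of all probe sets were called. Rab44 read 10.15 and 9.79 in C57BLKS/J(662), against 10.39, 10.58, 10.78, 10.80 and 10.89 in C57BL/6J, a difference of -0.72 ± 0.12 (SE, adjusted p = 5.7e-05). It was lost without array 2 of C57BLKS/J(662) (adjusted p = 0.082), and 3 genes were called without array 1 of C57BL/6J and 2 without array 2 of C57BL/6J or array 1 of C57BLKS/J(662).

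C57L/J (668) minus C57BL/6J, which shares the same C57BL/6J arrays, had 8 Rab genes called, where 18.4% of all probe sets were. Rab23 stood at 7.77 and 7.07 in C57L/J (668), against 8.20 to 8.40 in C57BL/6J, a difference of -0.90. Rab19 (-0.64), Rab2b (-0.63), Rab24 (-0.49), Rab44 (-0.49) and Rab11b (-0.27) were lower too, and Rab28, a ciliary Rab (0.37), and Rab40b (0.29) were higher. Without array 2 of C57L/J (668), which stands apart, 0 were called, 1 array of the strain being left, and without array 1 there were 13. The differences moved unequally without array 2. Rab2b differed by -0.55 and Rab28 by 0.36, close to their values with both arrays, while Rab23 differed by -0.55, Rab19 by -0.37, Rab24 by -0.28, Rab44 by -0.19, Rab11b by -0.03 and Rab40b by 0.21. Rab40b also lost its call without array 2, 3 or 4 of C57BL/6J, with adjusted p between 0.061 and 0.10, and Rab28 without array 1 of C57L/J (668) (adjusted p = 0.067).

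CBA/J differed from CBA/CaJ in Rab3a alone, where 1.71% of all probe sets were called. It read 6.16 and 6.03 in CBA/J, against 6.57 and 6.38 in CBA/CaJ, a difference of -0.38 ± 0.11 (SE, adjusted p = 0.046). It was lost when any of the 4 arrays was left out, with adjusted p between 0.073 and 0.50. NOD/ShiLtJ, the diabetes-prone strain, differed from its diabetes-resistant relative NOR/LtJ in 2 genes, where 5.56% of all probe sets were called. Rab23 read 7.96 and 8.05 in NOD/ShiLtJ, against 8.64 and 9.04 in NOR/LtJ, a difference of -0.83 ± 0.21 (SE, adjusted p = 0.011). Rab19 read 7.70 and 7.54 in NOD/ShiLtJ, against 8.17 and 8.66 in NOR/LtJ, a difference of -0.79 ± 0.16 (SE, adjusted p = 0.00047). Neither gene's arrays overlapped, but among the uncalled genes looked at for this, nor did those of Rab3d, Rab7 and Rab38. Overlap was not counted over all Rab genes or all probe sets, so it adds nothing to the 2 calls. Without array 2 of NOR/LtJ 0 were called, without its array 1 there were 5, and without array 1 of NOD/ShiLtJ 1 was. The cell cycle list had its lowest mean in NOR/LtJ (6.86), and its part in these differences was not tested.

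NZB/BINJ and NZW/LacJ, the parents of a classical lupus-prone hybrid, gave 32 called Rab genes, where 45.5% of all probe sets were called. Of the Rab genes 6 were higher and 26 lower, beside 24.1% and 21.3% of all probe sets. The median difference was -0.16 over the Rab genes and 0.10 over all probe sets. Among the 20 brightest Rab genes it was -0.32, beside -0.27 over the 2407 probe sets of that brightness. The 2 arrays of NZB/BINJ were unlike each other: Rab18 read 5.68 and 7.11 there, against 7.71 and 7.23 in NZW/LacJ, Rab5a 9.33 and 10.14, against 10.45 and 10.46, and Rab27a 10.76 and 11.18, against 11.47 and 11.50. Without array 1 of NZB/BINJ, whose slope was 0.880, 6 genes were called, and without its array 2 there were 35. Without array 1 of NZW/LacJ there were 11, and under quantile normalization 12.

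The 6 called without array 1 of NZB/BINJ were Rab1b (-0.65), Rab43 (-0.57), Rab13 (-0.46), Rab7 (-0.27), Rab4a (0.42) and Rab17 (0.62). The brighter genes of these 6 were lower and the dimmer ones were of either sign. The share of all probe sets called was not counted with an array left out or under quantile normalization. The changed counts are therefore not shown to be particular to Rab genes. Of these 6, Rab43 and Rab7 kept the call whichever of the 4 arrays was left out, but neither passed under quantile normalization (adjusted p = 0.15 and 0.34). With both arrays, Rab22a (-1.06), Rab12 (-0.85), Rab11a (-0.78) and Rab6a (-0.54) were among the lower genes and Rab39b (0.44), Rab36 (0.38), Rab25 (0.37) and Rab26 (0.33) among the higher ones.

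**Figure D4:**
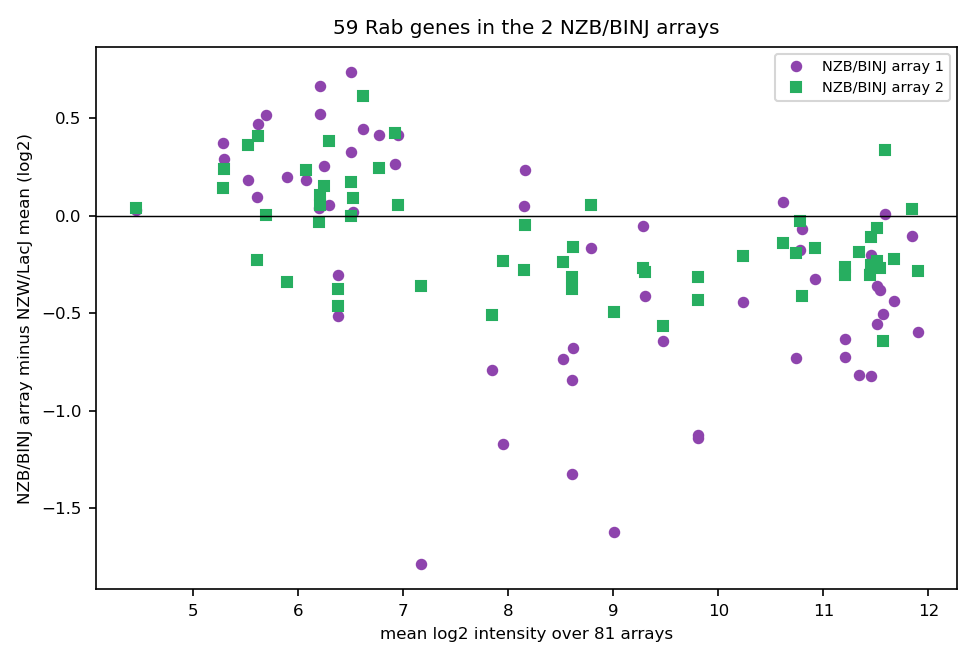
Each NZB/BINJ array minus the NZW/LacJ mean (vertical, log2) against the mean log2 intensity over 81 arrays (horizontal) for 59 Rab genes. Array 1 (circles) falls further below 0 than array 2 (squares) for many genes brighter than 7, and dim genes lie mostly above 0 on both.

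Rab genes also varied together over strains. Correlations were taken over the 40 strain means among the 12 genes with a 2-fold range other than Rab23, which falls into separate clusters, and of these genes with 10 marker lists, 186 relations in all. Of the 66 gene pairs 11 had an adjusted p under 0.05, 10 of them positive, and 7 did so without NZB/BINJ. Rab5a and Rab27a were the closest pair, with r = 0.81 and rho = 0.72. Rab5a and Rab22a had r = 0.80 and rho = 0.74, and Rab22a and Rab27a r = 0.76 and rho = 0.74. Each of these 6 coefficients had a permutation p of 1e-05, the smallest that 100000 resamples can give (adjusted p = 0.00062). The permutations treat strains as independent although they share ancestry. All correlations over strains, those with marker lists included, are therefore descriptions. Without the 2 strains farthest from the median of the x measure, r was 0.75, 0.77 and 0.75. Without NZB/BINJ it was 0.82, 0.83 and 0.75.

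The same 3 genes also moved together between arrays of the same strain. Over 79 arrays of the 38 groups with several, deviations from the strain mean correlated at 0.84 for Rab5a and Rab27a, 0.80 for Rab5a and Rab22a and 0.84 for Rab22a and Rab27a, as a description of arrays that share their strain. In C57BL/10J, for example, Rab5a read 9.80 and 10.44, Rab22a 9.06 and 9.52 and Rab27a 10.96 and 11.29. The array that was higher for one was higher for all 3. Whether this shared movement follows the quality of the RNA or of the array was not tested. Most strain means rest on 2 arrays, so it also enters the correlations over strains. Rab18 followed with Rab27a (r = 0.55) and Rab5a (r = 0.52), and Rab2b with Rab19 (r = 0.52, rho = 0.59). The negative pair was Rab5a with Rab37 (r = -0.48, rho = -0.40), which fell to an r of -0.32 without the 2 strains farthest from the median of Rab5a.

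**Figure D5:**
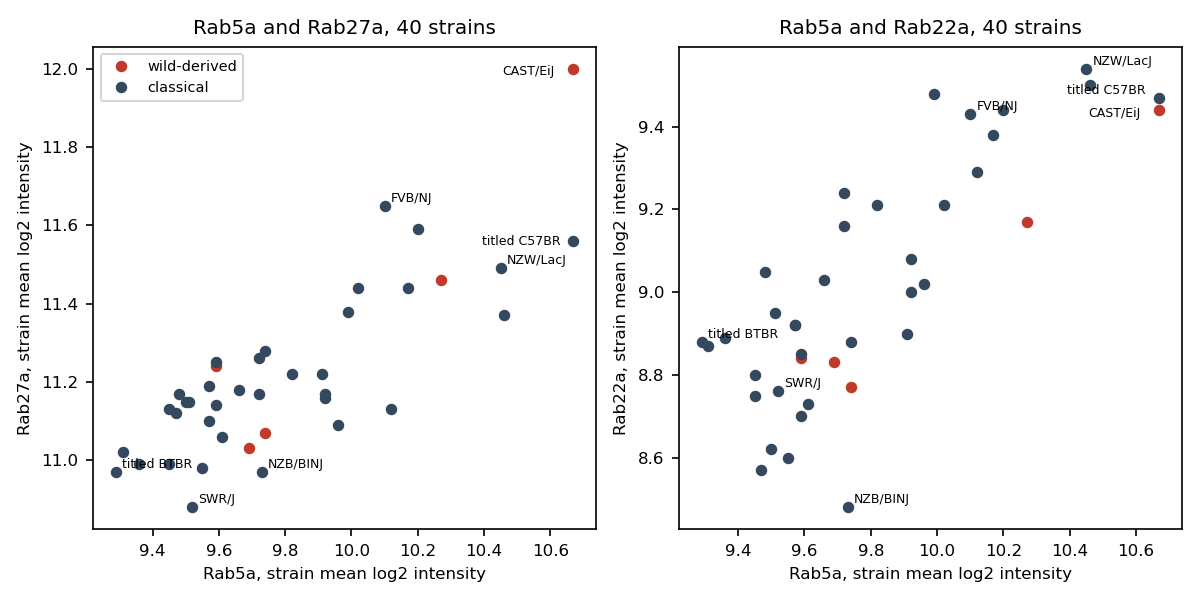
Strain mean log2 intensity of Rab27a (left) and Rab22a (right) against Rab5a, with each point a strain, wild-derived in red and classical dark. Both rise with Rab5a, at r = 0.81 and r = 0.80. CAST/EiJ is at the upper end of Rab5a and Rab27a, and NZB/BINJ is the lowest strain for Rab22a.

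Of the 120 relations with marker lists 9 had an adjusted p under 0.05. Rab19 was lower where the cell cycle list (r = -0.55, rho = -0.54, adjusted p = 0.012) and the azurophil-stage list (r = -0.54, rho = -0.56, adjusted p = 0.014) were higher, and Rab2b where the azurophil-stage list was higher (r = -0.51, rho = -0.56, adjusted p = 0.017). These 3 had r between -0.59 and -0.52 without NZB/BINJ. The B-cell list, whose strain means lay between 5.80 and 6.34, went with lower Rab12 (r = -0.53), Rab18 (r = -0.50) and Rab22a (r = -0.46), but without NZB/BINJ these were -0.36, -0.37 and -0.37 with adjusted p between 0.13 and 0.15. The remaining 3 were the erythroid list with Rab19 (r = -0.47, rho = -0.39, adjusted p = 0.025) and Rab2b (r = -0.44, rho = -0.54, adjusted p = 0.042), and the basophil and mast cell list with Rab12 (r = -0.48, rho = -0.44, adjusted p = 0.024). Without NZB/BINJ their r was -0.42, -0.43 and -0.46, with adjusted p between 0.059 and 0.072. The erythroid list lay between 5.75 and 6.28 and the basophil and mast cell list between 5.82 and 6.28. What part the marker signals have in the levels of these genes was not tested.

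The partners of Rab27a were read from a list of 11 effectors and docking proteins, of which 5 were called and 3 had a 2-fold range, beside 56.0% and 24.5% of all probe sets. Myo5a, the myosin that carries Rab27a-bound organelles and the gene of the dilute coat colour mutation known from DBA strains, was set apart in 3 strains. It read 11.37 and 11.23 in titled DBA2, 11.31 and 11.19 in P/J and 11.16 and 11.27 in SEA/GnJ, against 10.22 to 10.57 on the 5 C57BL/6J arrays and 9.69 and 9.79 in CAST/EiJ. The next strain mean was 10.61 in titled Balb, so the high group did not meet the others. The range was 1.56 (adjusted p = 4.0e-09).

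Sytl1, a synaptotagmin-like Rab27 effector, read 9.25 and 9.38 in LGJ, against 7.83 and 7.92 in NZB/BINJ, and Sytl3, another, had strain means between 5.77 in PL/J and 7.63 on the FVB/NJ array. Their ranges were 1.44 (adjusted p = 2.1e-13) and 1.86 (adjusted p = 1.6e-10), and that of Sytl1 was 1.40 without array 1 of NZB/BINJ. Unc13d, the Munc13-4 priming factor of granule exocytosis, was called with a range of 0.59, between 9.30 in titled Balb and 9.89 in PWD/PHJ. Myo7a was called at the same range of 0.59 and was lower in wild-derived strains, at 6.82 ± 0.09 against 7.02 ± 0.12 in classical strains (SD, n = 5 and 35 strains, adjusted p = 0.018). Mlph, the melanophilin linker and the gene of the leaden mutation known from C57L, was at 7.18 in C57L/J (668) within a range of 6.83 to 7.38 and was not called (adjusted p = 0.13). Sytl2, Sytl4, Sytl5, Myrip and Exph5 were not called.

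The wider machinery is mostly bright, so its counts are set beside the 84.9% of probe sets with a mean of 7 or more that were called and the 42.5% of them with a 2-fold range. For the contrast of origins, 6.64% of the array's probe sets passed as higher and 5.55% as lower. Of the 10816 averaging 7 or more, 857 passed as higher and 1172 as lower. In the granule fusion list all 14 measured genes were called, 5 with a 2-fold range, 1 higher and 2 lower in wild-derived strains, and 13 of the 14 averaged 7 or more, 4 of these with the 2-fold range. Stx3, a syntaxin of granule fusion, averaged 6.86 ± 0.45 in wild-derived and 6.25 ± 0.30 in classical strains (SD, n = 5 and 35 strains), a difference of 0.61 ± 0.15 (SE, adjusted p = 0.0042). Snap29, a SNARE of autophagosome and granule fusion, averaged 8.87 ± 0.20 against 9.26 ± 0.18, a difference of -0.40 ± 0.09 (SE, adjusted p = 0.0015). Vamp4 ranged over 1.86, between 8.41 in NZB/BINJ and 10.27 in titled C57BR, or 1.49 without array 1 of NZB/BINJ.

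Of 22 endosomal Rab effectors 20 were called, 11 with a 2-fold range, 4 higher and 3 lower in wild-derived strains. Of the 19 that averaged 7 or more, 18 were called and 11 had the 2-fold range, beside the 84.9% and 42.5% of probe sets that bright. Fyco1, which links Rab7 to kinesin, averaged 9.62 ± 0.65 in wild-derived and 8.31 ± 0.36 in classical strains (SD, n = 5 and 35 strains), a difference of 1.31 ± 0.18 (SE, adjusted p = 2.9e-06). Appl1, a Rab5 effector, averaged 9.29 ± 1.11 against 8.54 ± 0.18, with its highest mean of 10.58 in JF1/Ms. Rab11fip5, a Rab11 effector, was higher by 0.59 ± 0.14 (SE, adjusted p = 0.0022), and Zfyve27, protrudin, was lower, with a difference of -0.70 ± 0.10 (SE, adjusted p = 3.7e-06). Plin3 stood at 7.55 on the single SWR/J array, against 9.81 on the single FVB/NJ array.

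Among the genes that load and retrieve Rabs, 6 of 7 in membrane delivery and prenylation were called, 31 of 34 exchange factors and 33 of 38 GTPase-activating proteins, with 3, 5 and 12 at a 2-fold range. Among those averaging 7 or more the counts were 5 of 5, 28 of 28 and 26 of 27, with 3, 5 and 9 at a 2-fold range, beside 84.9% and 42.5% of probe sets that bright. Rabggta, the alpha subunit of the enzyme that attaches the lipid anchor of Rabs, averaged 8.27 ± 0.40 in wild-derived and 8.76 ± 0.16 in classical strains (SD, n = 5 and 35 strains), a difference of -0.50 ± 0.09 (SE, adjusted p = 0.00019). Rabac1, a Rab acceptor, was lower, with a difference of -0.43 ± 0.10 (SE, adjusted p = 0.0036). Tbc1d31 averaged 6.69 ± 0.45 in wild-derived and 7.58 ± 0.26 in classical strains, and Tbc1d10c, a GTPase-activating protein of blood cells, 10.63 ± 0.27 against 10.17 ± 0.29. All 7 measured Golgi and Rab6 effectors were called, all of them averaging 7 or more. Without the 2 arrays that stand apart, Golga2 of that list and the GTPase-activating proteins Tbc1d25 and Sgsm3 were not called (adjusted p = 0.09, 0.11 and 0.15), and Tbc1d16 was (adjusted p = 0.048). Kif20a, a mitotic kinesin that binds Rab6, had the largest range of these, 3.02, between 6.28 in NOR/LtJ and 9.30 in NON/ShiLtJ, the same strains that held the ends of the cell cycle list.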

How the data were processed

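The authors deposited 1 linear intensity value per probe set and array, made with Affymetrix Power Tools and RMA, per the submitters' processing notes, which give no versions. The genome build is not given in the sources used here. RNA was pooled from several mice per array, labelled with biotin and hybridised, per the labels' protocols.

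Values were converted to log2 here and not scaled further. Symbols came from the platform's gene table, where 21425 probe sets have 1 symbol, 1399 have several and 2098 lack any, and a gene's brightest single-symbol probe set was used. All 59 Rab genes matched the GRCm38.p6 gene table by gene identifier. Tests used R 4.3.3 and limma 3.58.1 (lmFit, eBayes) with Benjamini-Hochberg adjustment over all 24922 probe sets and a threshold of 0.05. One model with a mean per title group over 81 arrays (41 residual and 7.93 prior degrees of freedom) gave the F test and the strain pairs, and strain means gave the contrast of origins. Scripts were tested on simulated data. Correlations used permutation tests with 100000 resamples.

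The Rab genes, lists and tests were chosen with earlier results of these data known, so no list is independent support. Genes given in full were the called Rab genes with a 2-fold range, those called between origins or in a pair, 10 Rabs of known traffic roles, up to 6 genes of each partner list by spread and all Rab27 effectors. Alternatives were a common array median, quantile normalization, brighter probe sets alone, a trended and robust prior, a replicate block, arrays or wild-derived strains left out, groups of conflicting labels or of 1 array left out, grouping by background label, other probe sets and, chosen after seeing the data, no NZB/BINJ arrays, or neither of the 2 arrays that stand apart.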

Additional observations from a re-analysis of the deposited data

Results flagged for a closer look

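For 23 Rab genes, the 5 C57BL/6J arrays and the 5 wild-derived strain means were looked at, 46 sets in all. In each set the highest or lowest value was set against the others by Dixon's test at its 95% critical value. Chance passes this in about 1 of 20 sets, and 3 passed. For Rab5a, array 1 of C57BL/6J was highest at 10.67, with the next at 9.95. For Rab19, the same array was lowest at 7.92, with the next at 8.23. For Rab23, WSB/EiJ was highest among the wild-derived strain means at 8.73, with the next at 5.16. The cause was not tested.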

How the results depend on the processing

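The count of Rab genes differing among strains lay between 39 and 43 when any array was left out, and the count with a 2-fold range between 12 and 18. The ranges for the pairs were 0 to 0 (C57BL/10J minus C57BL/6J), 0 to 3 (C57BLKS/J(662) minus C57BL/6J), 0 to 13 (C57L/J (668) minus C57BL/6J), 0 to 0 (CBA/J minus CBA/CaJ), 0 to 5 (NOD/ShiLtJ minus NOR/LtJ) and 6 to 35 (NZB/BINJ minus NZW/LacJ). Without any wild-derived strain, 2 to 6 genes were higher and 1 to 2 lower in wild-derived strains. Of 111 other summary counts 97 stayed within 1.5 times. The exceptions under quantile normalization were 2 genes for C57BLKS/J(662), 2 for CBA/J, 12 for NZB/BINJ, 5 higher in wild-derived strains and 7 correlated pairs. A common array median gave 1 for NOD/ShiLtJ. The bright probe sets alone (mean 7 or more) gave 2 for C57BLKS/J(662) and 0 for CBA/J. Without NZB/BINJ there were 4 for NOD/ShiLtJ and 7 correlated pairs, and without the 2 arrays that stand apart 4 for NOD/ShiLtJ and 2 for C57BLKS/J(662). Of 2421 values of named Rab genes 2302 kept direction and call, 115 lost the call, 80 of them in the NZB/BINJ pair, and 1 gained it. The 3 that reversed were in that pair: Rab14 (0.01) and Rab37 (0.03) under quantile normalization, and Rab25 (0) without replicate 1 of NZB/BINJ, whose values spanned 0 to 0.75 over the arrays left out. Under these alternatives the share of all probe sets called was not counted, except in the F test without the 2 arrays that stand apart. Causes were not tested.

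With the replicate block, 40 Rab genes differed among strains and 14 had the 2-fold range, and the pairs gave 4 (C57L/J (668)), 0 (CBA/J) and otherwise the same counts as without it. Deviations of same-numbered arrays correlated between -0.22 and 0.08 over the 6 pairs, so the numbers are not shown to pair the pools. Without raw scanner files, signal over background was not examined, and a dim level is no proof of absence.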
